A study of Mus musculus with 319 samples.

Results

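Thymic tuft cells carried the keratin pair of simple epithelium, Krt8 and Krt18, in nearly every cell, carried Krt19 in only some cells, and held reads of the basal keratins Krt5 and Krt14 in few. The values below are for 10 genes, chosen by name from the 48795 genes of the count tables: the simple keratins Krt8, Krt18, Krt19, Krt7 and Krt20, the basal keratins Krt5 and Krt14, the suprabasal keratin Krt10, Krt23, and Epcam. The rule is a list of names with no threshold. All 10 genes were found in the tables under a single entry each.

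Keratins build the intermediate filaments of epithelial cells, and a filament needs a type I chain paired with a type II chain. In simple epithelium the pair is Krt8 (type II) with Krt18 (type I), to which Krt19, Krt7 and Krt20 are added in particular tissues. In stratified epithelium the basal layer makes Krt5 (type II) and Krt14 (type I), and suprabasal layers exchange them for others such as Krt1 and Krt10. In the thymus, Krt8 and Krt18 are known from cortical epithelium and from part of the medulla, and Krt5 and Krt14 from medullary epithelial cells.

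The study sorted single thymic epithelial cells into plates and made libraries by Smart-seq2, which copies full-length polyadenylated RNA and carries no molecular identifiers. The gate required EPCAM, low MHCII and the Flare25 reporter of the cytokine gene Il25, and it excluded dead cells and cells with CD45 or CD11c, so the presence of Epcam was set by the sort. Wild-type (WT) cells were Flare25/Flare25 of the strain C57BL/6.Il25 and came as 3 sets: June5 and June29 in batch 1, and a set in batch 2. The fourth set, of strain C57BL/6.Il25.Aire, carried the same reporter and is labelled Aire-/-, for loss of the autoimmune regulator that drives tissue antigen expression in medullary epithelium. It was made in batch 2 alone. Mice were naive, with sex labelled as mixed, and 6 weeks old except for 1 well labelled 5 weeks. The labels tie no well to an animal, so each set counts as 1 sample. No p-value or standard error was made from cells, and intervals cover counting error only.

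After filtering, 301 of 314 single-cell wells remained: 29 of June5, 87 of June29, 89 of WT batch 2 and 96 labelled Aire-/-. Levels are in CPM, the reads of a gene scaled to a fixed total of gene reads, over the summed cells of a set. The median cell had 539655, 1150167, 566923 and 638298 gene reads in that order of sets, so June29 was the deepest. At least 10 of 20 tuft core marker genes had 5 or more reads in 29, 85, 86 and 94 cells. Aire itself, the gene named in the genotype, was read at 7.835, 11.16, 18.92 and 152.7 CPM in the same order of sets. Its level was thus highest in the set labelled as lacking it, so those cells are called "labelled Aire-/-" throughout, and a count per gene does not show whether the RNA was intact. At least 2 markers of a thymocyte, B cell or myeloid list were found in 11, 28, 13 and 18 cells. No 2 wells held the same counts.

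Krt8 was the most abundant type II keratin and was found in every cell. Its gene lies on chromosome 15 (GRCm38, 101996698 to 102004482, minus strand). In June5 the lowest cell had 443.9 CPM, the median cell 5054 and the highest 16090. June29 ran from 10.24 through a median of 3719 to 16200 CPM. WT batch 2 ran from 123.8 through 5076 to 16900 CPM. The cells labelled Aire-/- ran from 238.1 through 6736 to 15180 CPM. The 4 ranges overlapped almost completely, with the highest median in the cells labelled Aire-/- and the lowest in June29. Summed levels were 7363, 6062, 5694 and 7386 CPM, in the order June5, June29, WT batch 2 and labelled Aire-/-. The single cells under 500 CPM numbered 1, 5, 3 and 4.

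Krt18, the type I partner of Krt8, lies near it on chromosome 15 (102028180 to 102032027, plus strand). Summed levels of Krt18 were 5053, 5571, 3151 and 3506 CPM in the same order of sets. Median cells had 3898, 4876, 2731 and 3295 CPM. Both sets of batch 1 stood above both sets of batch 2 by either measure, while single cells overlapped widely. Cells without 5 reads of Krt18 were rare: 0 of 29, 1 of 87, 2 of 89 and 1 of 96.

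**Figure D1:**
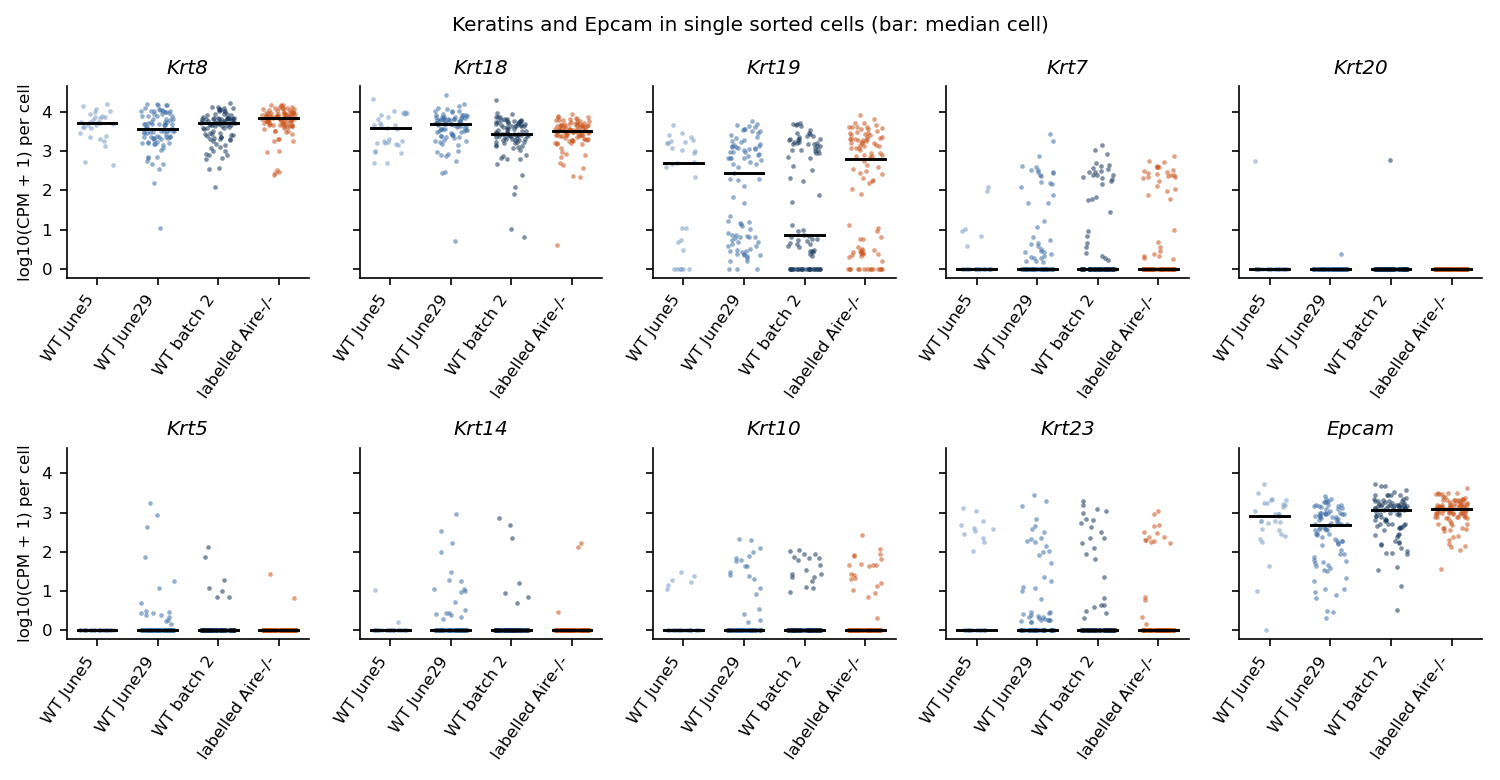
Level of each of the 10 genes in every kept cell, as log10 of CPM with 1 added, by set, with 1 point per cell and a bar at the median cell. Krt8, Krt18 and Epcam fill every set, and Krt19 ranges from cells near 0 to cells above 1000 CPM, with others between. The other 6 genes have a median at 0.

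Levels of different genes are compared here per kilobase of exon. Krt8 stood at 3760, 3096, 2908 and 3772 CPM per kilobase and Krt18 at 3516, 3877, 2193 and 2440, in the same order of sets. Krt8 therefore stood to Krt18 as 1.07, 0.799, 1.33 and 1.55. June29 was the set in which Krt18 led. Within single cells, Krt18 exceeded Krt8 per kilobase in 51.7% and 67.8% of cells in batch 1 (June5, June29), and in 42.7% (WT) and 22.9% (labelled Aire-/-) in batch 2. Of the 9 keratins summed per kilobase, Krt8 and Krt18 together left little to the others: Krt8 took 47.2%, 39.7%, 50.7% and 53.2%, and Krt18 took 44.1%, 49.7%, 38.2% and 34.4%.

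The counts of Krt8 touch those of a near-identical copy. Krt8-ps is a processed pseudogene on chromosome 7 (23357125 to 23358069, plus strand), 945 bases long, and its aligned bases are 98.2% identical to the coding sequence of Krt8. Of all stretches of 50 bases in Krt8, 26.9% occur unchanged in Krt8-ps. The longest shared run holds 299 identical bases, and a read inside it cannot be placed on either gene by sequence. Most of it is shown with the bases that follow, 409 to 708 of the Krt8 coding sequence and of Krt8-ps, from GENCODE M21 on GRCm38, with capitals at the 2 bases that differ:

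Krt8: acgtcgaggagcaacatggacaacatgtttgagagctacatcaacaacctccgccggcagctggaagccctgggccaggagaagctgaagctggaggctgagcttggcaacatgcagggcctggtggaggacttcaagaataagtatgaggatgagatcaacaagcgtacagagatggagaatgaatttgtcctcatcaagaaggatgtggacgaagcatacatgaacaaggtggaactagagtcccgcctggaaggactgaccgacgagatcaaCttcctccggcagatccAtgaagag

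Krt8-ps: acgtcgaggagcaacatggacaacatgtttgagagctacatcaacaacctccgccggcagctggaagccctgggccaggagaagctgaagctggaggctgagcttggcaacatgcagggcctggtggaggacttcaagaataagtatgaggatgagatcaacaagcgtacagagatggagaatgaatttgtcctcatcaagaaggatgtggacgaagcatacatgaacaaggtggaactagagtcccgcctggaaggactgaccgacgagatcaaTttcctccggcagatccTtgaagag

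Reads assigned to Krt8-ps came to 14.8% and 14.1% of Krt8 reads in June5 and June29, but to 4.01% and 4.23% in batch 2 (WT, then labelled Aire-/-). The share in the median cell was 12.9%, 12.9%, 3.98% and 4.11%, among cells with at least 50 reads of Krt8. The share thus followed the batch and not the genotype label. Across cells Krt8-ps tracked Krt8 closely within each set, with Spearman rho of 0.92 to 0.95 over 29 to 96 cells. How reads that fit both genes were counted is not given in the sources used here, and its part in the batch difference was not tested. With the Krt8-ps reads added to Krt8, the ratio to Krt18 became 1.23, 0.911, 1.38 and 1.61.

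**Figure D2:**
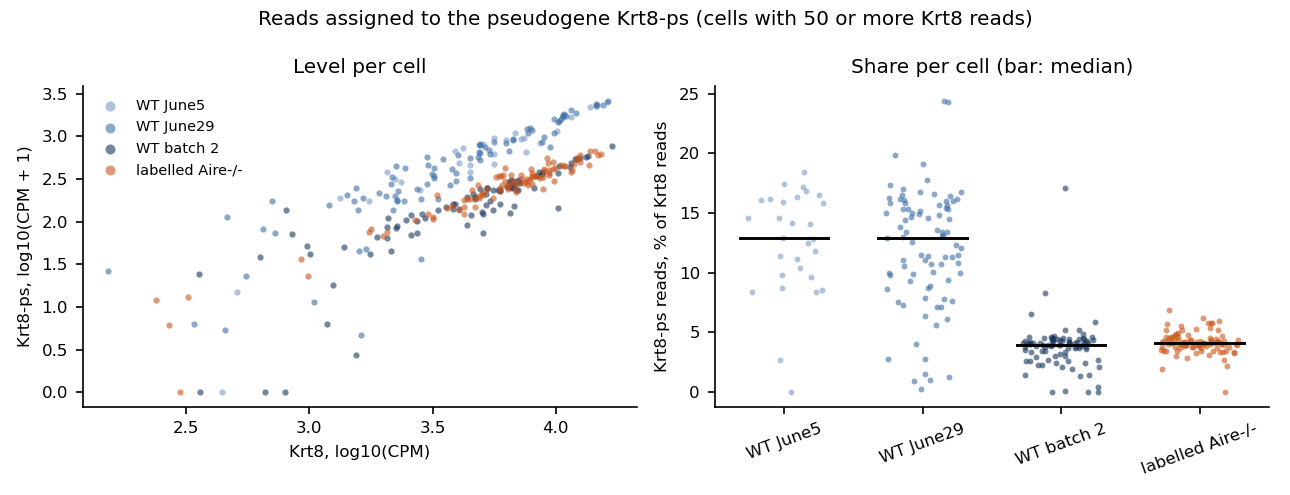
Left, log10 CPM of Krt8-ps (with 1 added) against log10 CPM of Krt8, 1 point per cell with at least 50 Krt8 reads. Right, Krt8-ps reads as a percent of Krt8 reads by set, with a bar at the median cell: 12.9% in both sets of batch 1 and 3.98% and 4.11% in batch 2.

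Krt8 and Krt18 varied together from cell to cell, with rho of 0.73, 0.63, 0.48 and 0.54. These values describe 29, 87, 89 and 96 cells that share library preparation and pool, with depth not adjusted for. Krt8 correlated with gene reads per cell at 0.45, 0.53, 0.20 and 0.15. Krt18 showed less of that, at 0.10, 0.22, -0.15 and 0.06. Among 1738 genes with a read in 50% or more of the cells in all 4 sets, the gene most like the sum of Krt8 and Krt18 was Krt8-ps, with a median rho of 0.82 over the 4 sets. Others among the most alike were H2-D1 (0.46) and Gm8909 (0.45), both of the MHC class I region, the surface glycoprotein gene Cd24a (0.44), the tetraspanin gene Tspan6 (0.43), the class I light chain gene B2m (0.40) and the dehydrogenase gene Aldh2 (0.40). The median over all those genes was 0.09.

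Krt19, a small type I keratin, ranged from 0 or a few CPM in some cells to over 1000 CPM in others. Krt19 was also found at levels between these. In June5 it ran from 0 through a median of 486.3 to 4640 CPM. June29 ran from 0 through 279.3 to 5657 CPM. WT batch 2 had a median of only 6.359 CPM and a highest cell of 5020. In the cells labelled Aire-/- the median was 637.7 and the highest cell 8328 CPM, with the lowest at 0 in both batch 2 sets. At least 5 reads were found in 65.52%, 74.71%, 46.07% and 64.58% of cells, with exact 95% intervals of 45.67 to 82.06, 64.25 to 83.42, 35.44 to 56.96 and 54.16 to 74.08. A well without a cell in batch 1 had 6 reads of Krt19, so it passed this limit too. WT batch 2 was the low set by median and by share. Summed levels were closer together, at 1080, 1292, 963.9 and 1513 CPM, because cells above 1000 CPM were present in all sets: 12 of 29, 28 of 87, 30 of 89 and 41 of 96. When each cell was thinned to 231697 reads, which left out 6, 2, 10 and 12 shallower cells, the shares were 69.57%, 58.82%, 50.63% and 64.29%. June29 no longer led at that matched depth, while WT batch 2 was still lowest.

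Krt19 did not follow the other simple keratins across cells. Its rho with Krt8 was -0.07, 0.32, 0.10 and 0.06, and with Krt18 -0.34, 0.17, -0.21 and -0.20, over the same 29, 87, 89 and 96 cells. A cell labelled Aire-/- in well 12 had 6495 CPM of Krt19 with 3.093 of Krt18 and 269.1 of Krt8. It still had 15 of the 20 tuft core markers, 3628 CPM of the actin regulator Avil and 1638 of Epcam.

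Krt7, a type II keratin of ducts and other simple epithelia, was found in a minority of cells. Shares with 5 or more reads were 13.79%, 25.29%, 24.72% and 26.04%, in the usual order of sets. The median cell had 0 in every set, and the highest cells had 122.5, 2690, 1396 and 756.9 CPM. June5 lacked the high cells: its summed level was 10.23 CPM against 134.3, 93.35 and 92.83 in the others. A single cell held 71.9% of the Krt7 reads of June5.

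Krt20, a type I keratin of intestinal and urothelial lining, was all but absent. In June5 its 244 reads came from 1 cell and in WT batch 2 its 528 reads came from 1 cell. June29 had 1 read. The cells labelled Aire-/- had 0 of 96 cells with a read, which allows a share of up to 3.125% and a level of up to 0.0415 CPM.

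**Figure D3:**
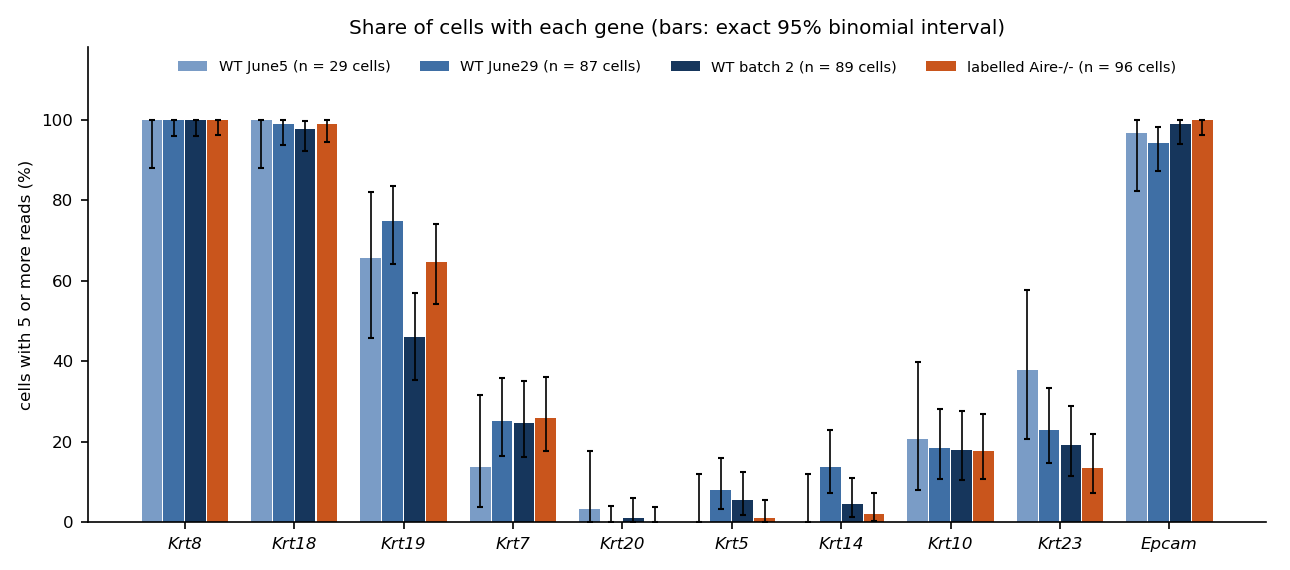
Percent of cells with 5 or more reads of each gene, by set, with bars for the exact 95% binomial interval, which covers counting error only. At full depth, Krt19 is the gene with the widest gap between sets, 46.07% in WT batch 2 against 74.71% in June29. That ranking did not hold with cells thinned to a matched depth, which left out shallower cells. Krt19 then ran from 50.63% in WT batch 2 to 69.57% in June5, with June29 at 58.82%. Krt23 had the widest gap there, 15.48% in the cells labelled Aire-/- against 39.13% in June5. Krt5 and Krt14 are at 0 in June5.

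The basal keratins were rare. Krt5 stood at 0, 40.39, 3.246 and 0.2627 CPM, in the order June5, June29, WT batch 2 and labelled Aire-/-, and was found in 0%, 8.046%, 5.618% and 1.042% of cells. Krt14, its partner, stood at 0.07995, 20.86, 21.94 and 5.226 CPM and was found in 0%, 13.79%, 4.494% and 2.083% of cells. June5 had no read of Krt5 and only 2 of Krt14. Against a floor of 3 reads over that set, Krt5 was at least 337-fold higher in June29, and 58.8% of the June29 reads came from 1 cell. For Krt14 the ratio of June29 to June5 was 261, with a counting interval from 72.1 to 2160, and 1 cell held 65.6% of the June29 reads, without which June29 stood at 7.281 CPM.

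Either basal keratin reached 5 reads in 0 of 29 cells of June5, which allows a share of up to 10.34%. In June29 it did so in 16 of 87 cells (18.39%, exact interval 10.89 to 28.14). WT batch 2 had 9 of 89 (10.11%, 4.729 to 18.33) and the cells labelled Aire-/- had 3 of 96 (3.125%, 0.6491 to 8.862). The exact interval of June5 reached 11.94%, so the exact intervals of neighbouring sets in this order overlapped. That of June29 lay above that of the cells labelled Aire-/-, which differ in batch and depth. Depth moved the June29 value: at 231697 reads per cell the shares were 0%, 9.412%, 6.329% and 2.381%. Both Krt5 and Krt14 reached 5 reads in 3 cells, all of June29. Most cells with a basal keratin thus reached 5 reads with only the type I or only the type II chain.

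Most cells with a basal keratin carried tuft core markers as well. At least 10 tuft core markers were present in 15 of the 16 cells of June29, 8 of the 9 of WT batch 2 and all 3 labelled Aire-/-. Trp63, the transcription factor of basal epithelium, reached 5 reads in 3, 2 and 0 of them, and in 9, 7 and 8 of all cells of those sets. Krt17, a keratin of basal and stressed epithelium, did so in 11, 5 and 1. At least 2 haematopoietic markers of a list were found in 3, 4 and 1 of these cells. Over all cells Krt17 was found in 2, 17, 8 and 14, and of the 14 labelled Aire-/- only 1 had a basal keratin. Some June29 cells with 5 reads of Krt14 held far more Krt17. Krt14 was 18.07, 16.9 and 167.6 CPM in wells 4, 38 and 85, beside 1531, 1352 and 8935 of Krt17. In wells 3, 69 and 87 Krt14 (96.12, 28.92 and 328.7 CPM) exceeded Krt17 (2.011, 0 and 6.27). The part of sequence shared between keratins in these Krt14 counts was not tested. At least 2 of 10 markers of basal and MHCII-low medullary epithelium, a list that includes Krt5 and Krt14, were found in 3, 14, 16 and 16 cells. Its summed level ran from 0 to 532.3, 17050, 941.8 and 1215 CPM per cell. Krt5, Col17a1 and Pdpn of this list had no read in June5, and Col17a1 had none in the cells labelled Aire-/-. The part of cells of that kind in the basal shares was not tested.

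Set against each other in each cell, simple keratins far exceeded basal ones. The measure is log2 of Krt8 plus Krt18 over Krt5 plus Krt14, in CPM per kilobase with 1 added to each side. In June5 it ran from 9.01 through a median of 12.17 to 14.19. June29 ran from -4.41 through 11.83 to 14.09. WT batch 2 ran from 1.54 through 12.14 to 14.36, and the cells labelled Aire-/- from 5.17 through 12.42 to 13.62. Medians lay close together, since most cells had 0 on the basal side and the value then measures Krt8 and Krt18 alone. The sets parted at their low ends, where the basal keratins enter.

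**Figure D4:**
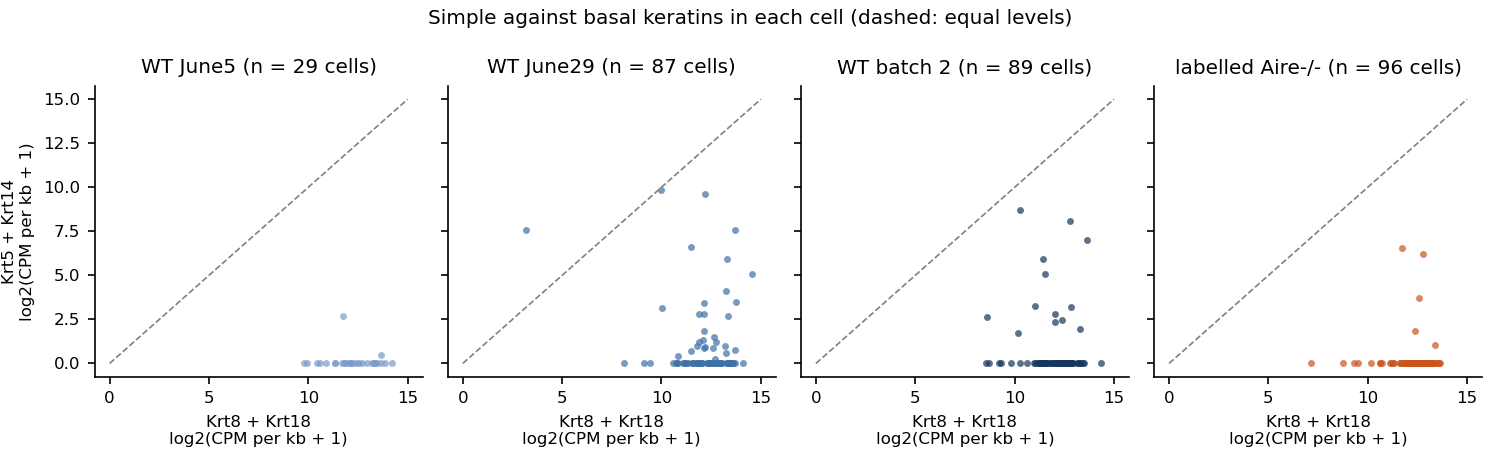
Basal keratins (Krt5 plus Krt14) against simple keratins (Krt8 plus Krt18) in each cell, both as log2 of CPM per kilobase with 1 added, in a panel per set, with a dashed line at equal levels. Only 1 cell, of June29, lies above the line, and 0 cells of June5 have 5 reads of a basal keratin.

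Basal exceeded simple keratins in 1 cell of 301, in well 37 of June29. That cell had 421.9 CPM of Krt5 with 10.24 of Krt8, 4.096 of Krt18 and 2.048 of Epcam, and its mitochondrial share of reads was close under the limit of 20%. It carried 600.1 CPM of Krt19 and 10 tuft core markers. Basal keratins passed 1/10 of the simple ones in 3 cells of June29, 1 of WT batch 2, and 0 in the other 2 sets. In well 12 of June29, Krt5 (879.3 CPM) and Krt14 (895.5) both stood high beside Krt8 (1196), Krt7 (1839) and Krt17 (1315), with 14 tuft core markers. In well 9 of June29, Krt5 reached 1719 CPM with Krt17 at 1236 and Trp63 at 506.3.

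A cell of WT batch 2, called here the Krt16-rich cell, was unlike the rest. It had 2 of the 20 tuft core markers, and they summed to 33.22 CPM. Among its keratins were Krt16 at 18650 CPM, Krt84 at 11250, Krt17 at 2496, Krt23 at 1994, Krt1 at 1206 and Krt14 at 739.6, beside Krt8 at 2081 and Krt20 at 584.6. The cornified envelope gene Ivl stood at 9034 CPM, while Krt5, Krt10, Lor and Flg had no read. Mitochondrial genes took 0.00443% of its reads. It supplied 53.1% of the Krt14 reads of its set, 100% of Krt20, 99.7% of Krt16 and 99.9% of Krt84. At least 2 of 9 corneocyte markers were found in 1, 8, 9 and 4 cells of the sets. Their summed level ran from 0 to 284.2, 8738, 18150 and 469.9 CPM, with Ivl and Lor at 0 in both June sets, Sbsn, Spink5 and Flg at 0 in June5, and Lor at 0 in the cells labelled Aire-/-. Without the Krt16-rich cell, Krt14 of WT batch 2 was 10.44 CPM and Krt20 was 0.

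Krt14 and Krt16 share sequence, which bears on that cell because its Krt16 level was the highest of any cell. Of the stretches of 50 bases in Krt14, 13.9% occur in other genes, most in Krt16. The genes lie close together on chromosome 11 (GRCm38, minus strand), Krt14 at 100203162 to 100207548 and Krt16 at 100246091 to 100248902. Their longest shared run is shown with its flanks, coding bases 281 to 464 of Krt14 and 257 to 440 of Krt16, from GENCODE M21, with capitals at the 8 bases that differ:

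Krt14: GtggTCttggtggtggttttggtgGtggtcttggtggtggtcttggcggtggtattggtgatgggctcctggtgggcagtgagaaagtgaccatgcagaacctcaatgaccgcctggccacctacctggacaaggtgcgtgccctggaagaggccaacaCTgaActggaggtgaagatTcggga

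Krt16: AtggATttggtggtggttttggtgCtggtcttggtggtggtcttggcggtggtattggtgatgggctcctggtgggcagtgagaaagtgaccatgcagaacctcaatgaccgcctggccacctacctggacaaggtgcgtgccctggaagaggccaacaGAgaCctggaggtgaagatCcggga

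Over the aligned coding sequence the genes are 70.7% identical, so only part of Krt14 is open to such sharing. Krt5 shares 12.2% of its 50-base stretches with other genes, most with Krt6a. Krt19, Krt20, Krt23 and Epcam share none, and Krt18, Krt7 and Krt10 share 0.72%, 0.916% and 2.37%.

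Krt10, the suprabasal type I keratin, showed the most even shares of any gene here that was rare: 20.69%, 18.39%, 17.98% and 17.71% of cells. Its summed level was low, at 6.156, 12.14, 13.11 and 9.898 CPM, and the highest cell of any set had 263.1 CPM. Krt23, a type I keratin not tied to a layer, was found in 37.93%, 22.99%, 19.1% and 13.54% of cells and stood at 155.5, 119.6, 127.7 and 72.39 CPM. Intervals of its shares overlapped between all sets, also between June5 (20.69 to 57.74) and the cells labelled Aire-/- (7.412 to 22.04). In each set 24.6% to 38.5% of Krt23 reads came from 1 cell.

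Epcam, whose protein was part of the gate, was found in 96.55%, 94.25%, 98.88% and 100% of cells. In June5 it ran from 0 through a median of 814.7 to 5293 CPM, and in June29 from 1.091 through 492.1 to 2597. WT batch 2 ran from 2.326 through 1153 to 5391, and the cells labelled Aire-/- from 35.88 through 1215 to 4233 CPM. June29 was the low set, with 774.7 CPM summed against 1462, 1388 and 1208. In the WT sets (June5, June29, batch 2) Epcam rose with Krt8 (rho 0.25, 0.47 and 0.34) and with gene reads per cell (0.56, 0.47 and 0.32). In the cells labelled Aire-/- these values were 0.09 and -0.18.

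Between genotypes the comparison was kept within batch 2. A gene was compared when it stood at 20 CPM or more in the higher set. It was called when its log2 fold, with 1 CPM added, was at least 1 in size and its shares of cells differed by at least 15 points the same way. Of 8267 genes, 1.42% were called (1.02% higher and 0.399% lower in the cells labelled Aire-/-). The fold alone was passed by 18.4% (7.34% higher and 11.1% lower). Of the 10 genes here, 7 were compared, 1 passed the fold alone (Krt14) and 0 were called. Krt8, Krt18 and Epcam could not be called, whatever their fold, since nearly all cells of both sets had them. The median log2 fold of the 7 was -0.01, against -0.03 for all genes compared.

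Krt8 was 0.38 higher on the log2 scale in the cells labelled Aire-/- than in WT batch 2, with 0.23 on plate 1 and 0.53 on plate 2. The plates are wells numbered 1 and 2 under the heading Batch in the authors' table of wells, each with both genotypes, and are called plates here. Krt18 was 0.15 higher, with 0.08 and 0.23 by plate, but -0.02 when each cell weighed the same. Krt19 had the largest positive fold, 0.65, from 963.9 CPM (exact 95% Poisson interval 955.9 to 972.0) and 1513 (1504 to 1522), and a share gap of 18.5 points. Its fold was 0.93 on plate 1 and 0.30 on plate 2, and 0.37 without the cell with most reads, which held 20.6% of Krt19 reads of the set, and 0.50 without the top cell of each set. Relative to the median gene, scaling to the ERCC spike-in RNA left Krt8, Krt18 and Krt19 at 0.37, 0.14 and 0.64. That scaling put the median of all genes at 0.58, and Krt19 reached 1.22 in it and was then called.

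Lower in the cells labelled Aire-/- were Krt14 at -1.88 and Krt23 at -0.81. Without the cell with most reads, the Krt16-rich cell for both, they stood at -0.88 and -0.43. Single cells also held 82.8% of the Krt14 reads and 38.5% of the Krt23 reads of the cells labelled Aire-/-. With the top cell of each set left out, the folds were -2.57 and -1.07. Krt7 differed by -0.01 and Epcam by -0.20, and Epcam turned to 0.05 when each cell weighed the same and to 0.37 under spike-in scaling. Relative to the median gene in that scaling, Epcam stood at -0.21. Krt5 and Krt10 stayed under 20 CPM in both sets and were not compared. Krt20 was read in no cell labelled Aire-/- and in 1 WT cell of batch 2.

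**Figure D5:**
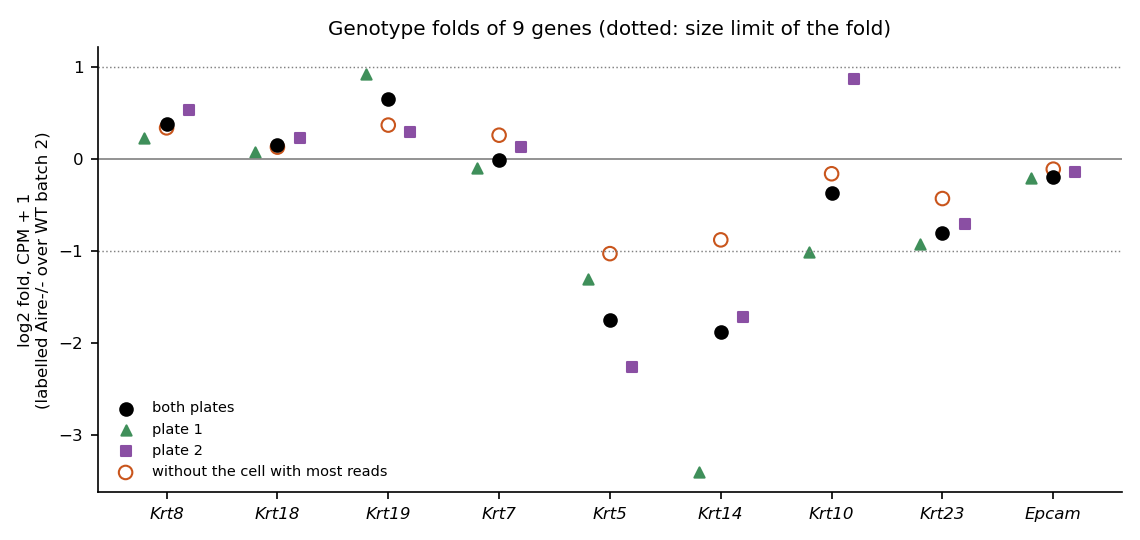
Log2 fold of 9 genes between cells labelled Aire-/- and WT batch 2, over both plates, on each plate alone, and without the cell with most reads of the gene in the higher set, with dotted lines at a size of 1. Krt8, Krt18 and Krt19 lie above 0 on both plates, and Krt14 moves from -1.88 to -0.88 without 1 WT cell.

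A well of 50 cells of each genotype was also sequenced in batch 2, with 720527 gene reads for WT and 539621 for Aire-/-. Krt8 stood at 6531 CPM in WT and 8869 in the well labelled Aire-/-, and Krt18 at 4540 and 5450, in the direction of the single cells. Krt19 went the other way, with 1720 CPM in WT and 869.1 in the well labelled Aire-/-, a log2 fold of -0.98. Krt7 was 115.2 against 5.559 CPM, from 83 and 3 reads, while the single cells of both labels stood alike at 93.35 and 92.83. Krt14 was 59.68 against 9.266 CPM, from 43 and 5 reads, and Krt20 was 30.53 against 0. Krt5 was 22.21 CPM against 0, with 0 reads allowing up to 5.56. For each of these wells the labels name a table of the other genotype, while the title and the column agree, and the title was used. A well without a cell in batch 1 had 9892 gene reads, of which 34 were Krt8, 20 Krt18, 6 Krt19, 3 Krt7 and 3 Epcam, with 0 for the other 5 genes. Its Krt8, Krt18 and Krt19 counts passed the limit of 5 reads. That limit alone thus does not set cells with few reads of these genes apart from an empty well.

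Between the wild-type sets 0 of the 10 genes were called as well. June29 against June5 had 8 genes compared and 0 called, beside 5.2% of all 8358 (1.81% higher, 3.4% lower). WT batch 2 against June5 had 7 compared and 0 called, beside 5.88% of all 8561 (1.9% higher, 3.97% lower). WT batch 2 against June29 had 8 compared and 0 called, beside 6.06% of all 8513 (3.38% higher, 2.68% lower). The fold alone was passed by 3, 2 and 1 of the compared genes, beside 34.3% (17.6% higher, 16.6% lower), 34.2% (19.5% higher, 14.8% lower) and 29.8% (17.1% higher, 12.6% lower) of all genes. These comparisons share sets. Krt7 stood 3.59 above June5 in June29 and 3.07 above it in WT batch 2 on the log2 scale, with share gaps of 11.5 and 10.9 points. Krt18 of WT batch 2 stood 0.68 and 0.82 below June5 and June29, and Epcam of June29 stood 0.92 below June5. The median log2 fold of the compared genes was 0.20, -0.16 and -0.26 in that order, against -0.11, 0.08 and 0.16 for all genes compared. With Krt5 at its lower bound, the first of these was also 0.20. For Krt18, Krt7, Krt14 and Epcam the largest of these WT differences exceeded the genotype difference in batch 2. For Krt14 it was 4.41, in WT batch 2 against June5 with its 2 reads, beside -1.88 between genotypes. For the summed log2 folds of Krt19 and Krt23 it did not exceed it. For Krt8 the 2 sizes were near equal, at -0.37 and 0.38. Relative to the median gene under TMM scaling, those of Krt8 were -0.45 and 0.39. By share of cells the WT gaps of Krt19 and Krt23 were the larger. Krt19 differed by -28.6 points in WT batch 2 against June29, beside 18.5 between genotypes. Its June29 share moved with depth, from 74.71% to 58.82% after thinning. Krt23 differed by -18.8 points in WT batch 2 against June5, beside -5.56 between genotypes. There was no replicate check on either the WT or the genotype differences.

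Genes that work with keratins were read from 6 lists. None of them had a gene called between genotypes in either direction, and with 1.42% of all genes called that count says little about lists of this size. Of 13 genes of desmosomes and filament linkers, 9 were compared, among them the desmosomal plaque genes Dsp (586.0 CPM in WT batch 2, 477.9 in the cells labelled Aire-/-) and Jup (225.1 and 197.6) and the desmosome-associated Perp (151.6 and 135.7). Of 10 genes of hemidesmosomes and basement membrane, 7 were compared, with the integrins Itgb1 (119.9 CPM in WT batch 2, log2 fold -0.11) and Itga3 (104.3 and 83.25) and the linker Dst (305.4 and 242.2). Their median log2 folds were -0.17 and -0.11, against -0.02 for all genes with a mean of 20 CPM or more over the 2 sets.

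Of 13 genes of claudin and protease-inhibitor partners of Epcam, 12 were compared, with a median of -0.05. Spint2, a membrane protease inhibitor, had 1323 and 1461 CPM, and the tight junction genes Cldn7 and Cldn3 at 543.3 and 434.3 and at 447.0 and 436.7. Of 16 epithelial transcription factors, 9 were compared (median -0.17). Elf3 stood at 908.5 and 656.6 CPM, Ehf at 688.4 and 696.1, and Klf4 at 149.7 and 161.6. Of 12 brush border genes, 9 were compared (median -0.10), with Anxa4 at 3668 and 3838, Anxa2 at 610.7 and 931.3, and Cdhr5 at 287.0 and 309.6 CPM. Of 13 cornified envelope genes, 8 were compared, and the 5 with enough reads had a median of -5.05. Their reads in WT batch 2 came mainly from the Krt16-rich cell. Sprr1a stood at 164.1 CPM in WT and 8.253 in the cells labelled Aire-/-, and at 5.923 in WT without that cell. Dmkn had a log2 fold of -5.38 with 3.511 CPM in the cells labelled Aire-/-, and WT had 46.95 without that cell. Ivl stood at 142.4 and 0.02765 CPM.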

How the data were processed

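Single sorted thymic cells, 50-cell wells and a no-cell well were sequenced by Smart-seq2. The authors' deposited tables hold raw read counts of each gene in each well, made with STAR, featureCounts 1.5.3, Subread and R 3.4.0 on GRCm38, per the submitters' processing notes. For the annotation and the handling of reads that fit several genes, the sources give nothing. A deposited score table (values below 0, method not given in the sources used here) served only as a list of wells. Symbols and positions came from GENCODE M21, 0.102% of reads fell in entries without a symbol, and 0 sample columns were left unused.

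Wells needed 10000 gene reads, 1000 genes and at most 20% mitochondrial reads. No doublet caller was run. Counts were summed per set and scaled to CPM over gene reads, spike-ins left out, with exact Poisson intervals, and shares of cells with 5 or more reads have exact Clopper-Pearson intervals at 95%. The upper limit for 0 is 3 reads or cells. Per-kilobase values use the union of exons. The summing and calling steps were tested on simulated data. Named genes are all 10 genes, other keratins at 20 CPM or more in a set, the 3 most abundant per length of each list, and the 8 most like Krt8 plus Krt18 or Krt5 plus Krt14 across cells; some of these are not reported here. The genes and lists were chosen with earlier results of these data known. Python 3.11.15, scipy 1.17.1, edgeR 4.0.16 (TMM, with R 4.3.3) and matplotlib 3.10.9 were used. Alternatives covered pseudocounts, read minimums, scaling, cell filters, single cells left out and plates.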

Additional observations from a re-analysis of the deposited data

Results flagged for a closer look

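The genotype folds of 2 genes pointed in opposite directions on the plates of batch 2. Krt7 differed by -0.1 on plate 1 and 0.13 on plate 2 (log2, cells labelled Aire-/- over WT). Krt10 differed by -1.01 on plate 1 and 0.87 on plate 2, from levels of 9.182 and 19.47 CPM and of 10.62 and 5.347 CPM. The 50-cell wells pointed the other way from the single cells for 3 genes. Their log2 folds were -0.98 for Krt19 (0.65 in single cells), 0.15 for Krt23 (-0.81) and 0.25 for Epcam (-0.20). Krt7 kept its sign but stood at -4.15 in the 50-cell wells, from 83 and 3 reads, against -0.01 in single cells. With 1 sample on each side, none of these differences was tested.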

How the results depend on the processing

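The counts of called genes, all 0 in the main run, stayed at 0 in every alternative but these. Under spike-in scaling, chosen after the data were seen, 1 gene was called higher in the cells labelled Aire-/- (Krt19, 1.22) and 1 lower in WT batch 2 against June29 (Krt19, -1.13), and the median of all genes stood at 0.58 and -0.65 in it, against -0.03 and 0.16 in the main scaling. In June29 against June5, 2 genes were called higher at 1 read per cell (Krt7 3.59, Krt5 5.37), 2 without cells with haematopoietic markers (Krt7 3.26, Krt14 4.85), and 1 lower with only the wells of the score table (Krt23, -1.62); the cause was not tested. The June29 share of cells with a basal keratin was 33.33% at 1 read and 9.412% after thinning. At 1 read it was 6.897% in June5 and 5.208% in the cells labelled Aire-/-, so June5 was then no longer lowest, and WT batch 2 had 6.329% after thinning. The median log2 of simple over basal keratins, in the order June5, June29, WT batch 2 and labelled Aire-/-, was 15.49, 14.9, 15.46 and 15.74 with 0.1 CPM per kilobase added and 8.85, 8.95, 8.87 and 9.11 with 10 added, since most cells have 0 basal reads. In all, 15 of these values moved. Of single-gene folds, 683 stayed on their side of the calling rule and 7 crossed it. No gene was called in the main run, so staying means only that a gene was again not called. Krt8, Krt18 and Epcam could not be called in the main run, whatever their fold. Changes of sign do not enter that tally. The most were for Krt14 in WT batch 2 against June29 (main fold 0.07, 8 of 17 settings) and Krt7 between genotypes (-0.01, 7 of 19). Leaving out the Krt16-rich cell, leaving out the top cell of each set compared, keeping only cells with 10 tuft core markers, and adding Krt8-ps to Krt8 were also chosen after the data were seen. No paired analysis was possible because each set is 1 sample and its well numbers name wells, not animals. Depth limits the shares of Krt5, Krt14 and Krt19 in shallow cells, and batch 1 holds no cells labelled Aire-/-.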

Other observations

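Of 46 other keratin genes in the tables, 8 stood at 20 CPM or more in some set, 27 were read below that level and 11 had no read in any kept cell. The most evenly spread of the 8, apart from Krt8-ps, was Krt222, a keratin-like gene, at 63.95, 38.28, 48.34 and 26.3 CPM per kilobase in June5, June29, WT batch 2 and the cells labelled Aire-/-, with 5 or more reads in 48.28%, 33.33%, 41.57% and 32.29% of cells. Krt17 stood at 1.804, 80.61, 40.32 and 45.75 CPM per kilobase, and 62.9% of its WT batch 2 reads came from the Krt16-rich cell. Krt79 stood at 12.99, 20.26, 5.079 and 4.355 CPM and Krt78 at 0, 35.19, 12.3 and 0.02765. A single cell held 85.3% of the June29 reads of Krt78, and the Krt16-rich cell 92.6% of those in WT batch 2. Krt1, Krt16 and Krt84 reached 20 CPM only in WT batch 2, at 23.18, 294.8 and 177.4 CPM, where the Krt16-rich cell held most of the reads.

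No gene followed the basal keratins closely. Clu, Sat1, Blnk, Sec23b, Fuca1 and Plgrkt, among the genes most like Krt5 plus Krt14 across cells, had median rho over the sets of 0.20 down to 0.15, against -0.02 for all 1738 genes. With so few cells holding a basal keratin, these weak values are given only as a description.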
